A study of Homo sapiens with 6 samples.

Results

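The NF-kB subunits and the kinases that activate them were followed in cells labelled HCT116 after an antisense oligonucleotide (ASO) against SNORA67, a small nucleolar RNA. HCT116 is an established human colorectal carcinoma line. The genes were the 5 that encode a REL domain (NFKB1, NFKB2, REL, RELA and RELB) and 4 that encode the IKK kinase complex and a kinase above it (CHUK, IKBKB, IKBKG and MAP3K14). They were chosen by name, with earlier results of these data known. All 9 were present in the deposited counts, which list 19655 symbols. Total RNA was sequenced in 3 libraries of cells transfected with the ASO, labelled SNORA67 knockdown, and in 3 libraries of control cells (NC). Both groups were grown in DMEM with foetal bovine serum. The sources used here give neither the ASO's sequence and dose nor how the NC cells were treated or when cells were harvested. The labels do not state whether replicates were separate cultures, and p-values therefore reflect library-to-library spread that may be technical.

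NF-kB is a family of transcription factors that act as pairs of REL-domain proteins. NFKB1 and NFKB2 encode long precursors that are cut to the DNA-binding subunits p50 and p52, which have no activation domain, while RELA, RELB and REL encode subunits that carry one. In resting cells the pairs are held back by inhibitor proteins with ankyrin repeats, the IkB proteins. In the first, canonical pathway, used by TNF, interleukin-1 and Toll-like receptors, the IKK complex of the kinases IKK-beta (IKBKB) and IKK-alpha (CHUK) and the scaffold NEMO (IKBKG) marks the inhibitors for degradation and frees mainly the RELA pair. In the second pathway, used by receptors such as the lymphotoxin receptor, the kinase NIK (MAP3K14) activates IKK-alpha, which starts the cutting of the NFKB2 precursor and frees the RELB pair. Several subunit genes are themselves known targets of NF-kB.

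The ASO libraries held 49136502 to 54905215 estimated counts each and the NC libraries 50728524 to 53715905. In each of them 4 was the commonest count above 0, so 1 sequenced fragment may be worth about 4 counts, and 3 fragments, or 12 counts, were taken as the detection limit, which covers counting error only. All 9 genes lay far above it, the lowest being RELB with 342 counts in NC replicate 2. SNORA67 itself was not analysed here. EIF4A1, whose intron holds it, stood at 650.7, 564 and 636 CPM in ASO and at 1489.8, 1543 and 1600.5 CPM in NC (CPM, counts scaled to library depth with TMM factors), 2.50-fold lower in ASO (edgeR adjusted p = 1.49e-05). Of 11 markers of colorectal epithelium, 3 reached 10 CPM on average in ASO and 2 in NC. Of these, KRT8 averaged 1166 CPM in ASO and 1360 CPM in NC and KRT18 738 and 712 CPM, while the adhesion gene EPCAM was at 2.93 CPM in ASO and 4.37 CPM in NC and the intestinal factor CDX2 at 0.191 and 0.311 CPM. Of the 9 epithelial markers tested, 3 were called higher in ASO and 0 lower, namely LGALS4 at 18.05 CPM in ASO and 0.0066 CPM in NC, VIL1 at 8.88 and 0.067 CPM and KRT19 at 1.66 and 0.050 CPM, all below the detection limit in NC. The 12 fibroblast markers summed to 2857 to 3418 CPM in ASO and 2165 to 2440 CPM in NC, with PDGFRA at 0 in all 6 libraries. Of the 10 tested, 4 were higher (COL1A1, COL3A1, COL5A1 and COL6A3) and 3 lower (PDGFRB, DCN and LUM), with COL5A1 at 1280 CPM in ASO and 612 CPM in NC, PDGFRB at 41.0 and 101 CPM, and VIM, which was not called, at 1290 and 1202 CPM. The 8 markers of immune cells summed to 13.4 to 15.2 CPM in ASO and 2.73 to 4.12 CPM in NC, with the pan-leukocyte gene PTPRC and the T cell gene CD3E at 0 in all 6 libraries. Of the 4 immune markers tested, 3 were higher in ASO, ITGAM at 8.11 CPM in ASO and 0.394 CPM in NC, CD14 at 1.14 and 0.286 CPM and CSF1R at 3.45 and 1.88 CPM. The 4 endothelial markers summed to 14.5 to 19.6 CPM in ASO and 9.59 to 10.7 CPM in NC, with KDR at 0 throughout. The epithelial adhesion gene CDH1 averaged 1.81 CPM in ASO and 1.06 CPM in NC, and the fibroblast markers COL1A1 374 and 160 CPM and THY1 172 and 192 CPM. EPCAM, CDH1 and CDX2 thus lay far below VIM, COL5A1, COL1A1 and THY1 in both groups, while KRT8 and KRT18 did not. The name HCT116 comes from the labels, and the identity of the cells was not tested. The part of these markers in the results was not tested.

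After the ASO, all 5 REL-domain genes rose and so did MAP3K14, while the 3 genes of the IKK complex itself did not pass the test. RELB rose most, by 10.8-fold, followed by NFKB2 at 5.89-fold, MAP3K14 at 5.70-fold, NFKB1 at 3.52-fold, REL at 2.62-fold and RELA at 1.42-fold. Thus 6 of 9 genes were higher and 0 lower by edgeR's quasi-likelihood test at an adjusted p under 0.05, where 26.8% of the 14062 genes tested were higher and 19.1% lower, 46.0% in all. At least 2-fold rises were found for 5 of the 9 genes, against 16.9% of all genes tested. The 9 genes were chosen with earlier results of these data known, so an excess over these shares is no independent finding. DESeq2 and limma-voom also called 6 higher and 0 lower, and 0 were lower at an unadjusted p under 0.05 with any of these tools. The ASO and NC libraries did not overlap for these 6 genes and overlapped for the other 3. Of all genes tested, 57.6% had no overlap, 31.6% with ASO above NC and 25.9% with ASO below NC. In bulk RNA, more transcripts per cell and more cells that express a gene cannot be told apart.

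**Figure D1:**
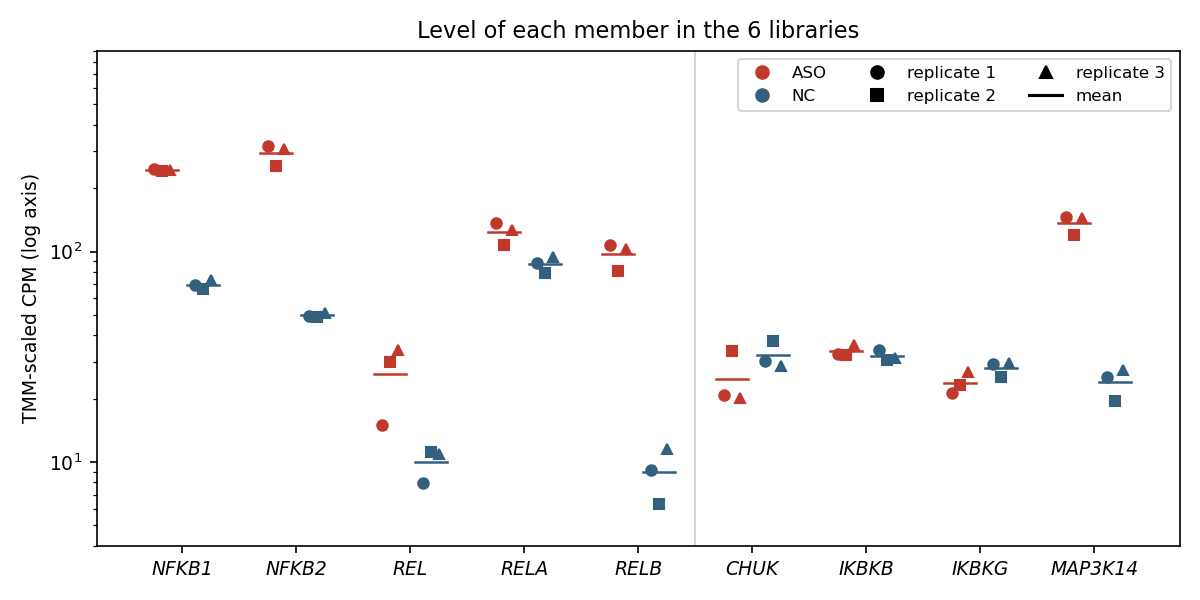
Level of each gene in every library as TMM-scaled CPM on a log axis, with ASO left of NC, a symbol per replicate and a line at the mean of 3 libraries; REL-domain genes stand left of the grey line and kinase genes right of it. The ASO libraries lie above all NC libraries for NFKB1, NFKB2, REL, RELA, RELB and MAP3K14, and the ranges of the 2 groups overlap for CHUK, IKBKB and IKBKG.

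NFKB1 (chromosome 4, 102501330 to 102617302 in the deposited hg38 coordinates), which encodes the p50 precursor, had 247, 241 and 245 CPM in the ASO libraries against 69.2, 66.6 and 72.9 CPM in the NC libraries. The 3 ASO values lay within a narrow band and all were at least 3.31 times the highest NC value. The mean was 245 ± 3.07 CPM in ASO and 69.6 ± 3.16 CPM in NC (SD, n = 3 each), a log2 fold change of 1.81 ± 0.08 (SE, edgeR adjusted p = 3.26e-06). NFKB2 (chromosome 10, 102394110 to 102402524), which encodes the p52 precursor, had 318, 254 and 306 CPM in ASO against 49.3, 48.7 and 51.0 CPM in NC. ASO replicate 2 was the lowest of its group and still 4.98 times the highest NC library. Its log2 fold change was 2.56 ± 0.11 (SE, edgeR adjusted p = 2.65e-06), the smallest p of the 9 genes and number 70 in order of p among the 14062 genes.

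RELB (chromosome 19, 45001461 to 45038192), the usual partner of p52, had 107, 81.0 and 103 CPM in the ASO libraries against 9.15, 6.28 and 11.5 CPM in the NC libraries. It was the scarcest REL-domain gene by count in NC together with REL, and every ASO library was at least 7.01 times the highest NC library. The log2 fold change was 3.43 ± 0.24 (SE, edgeR adjusted p = 2.86e-05), the largest of the 9, and number 972 in order of fold change among the 14062 genes tested. RELA (chromosome 11, 65653599 to 65663090), the activating subunit of the canonical pair, had 137, 107 and 127 CPM in ASO against 88.6, 78.9 and 94.4 CPM in NC. The lowest ASO library was 1.13 times the highest NC library, so the groups were separated by less than the spread within either of them. The mean was 124 ± 15.4 CPM in ASO and 87.3 ± 7.82 CPM in NC, and the log2 fold change of 0.50 ± 0.12 (SE) had an edgeR adjusted p of 0.0115, which reached 0.047 without ASO replicate 3.

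REL (chromosome 2, 60881491 to 60931612), which encodes the c-Rel subunit best known from lymphoid cells, had 14.9, 29.7 and 33.9 CPM in ASO against 7.98, 11.2 and 10.9 CPM in NC. ASO replicate 1 lay close to the NC libraries and the other ASO libraries well above them, and its coefficient of variation of 38.1% was the highest of the 9 genes in ASO. In NC it was 17.5% for REL, and RELB was the most variable there at 29.3%. The log2 fold change of REL was 1.39 ± 0.30 (SE, edgeR adjusted p = 0.00753), and it was 1.67 without ASO replicate 1. A non-coding gene that overlaps the 3′ end of REL on the same strand (AC010733.2, 5702 bases in GENCODE 29) has no entry in the deposited counts.

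The kinase MAP3K14 (chromosome 17, 45263119 to 45317029), whose protein NIK is kept scarce by degradation in resting cells, had 147, 120 and 144 CPM in the ASO libraries against 25.3, 19.4 and 27.5 CPM in the NC libraries. All ASO libraries were at least 4.38 times the highest NC library, and the log2 fold change was 2.51 ± 0.16 (SE, edgeR adjusted p = 1.73e-05). The antisense gene MAP3K14-AS1 overlaps 5512 bases of it in GENCODE 29 and has no entry in the deposited counts. No source used here states the strand setting of the counting, so reads of the antisense partner cannot be told apart from those of MAP3K14.

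The IKK complex genes did not pass the test, and approximate intervals of their differences give a range for how far they may have moved. IKBKB (chromosome 8, 42271302 to 42332460), the catalytic kinase of the canonical pathway, had 32.6, 32.3 and 36.1 CPM in ASO against 34.1, 30.3 and 31.2 CPM in NC. The groups overlapped, and the log2 fold change of 0.08 had a 95% interval of -0.18 to 0.34 (edgeR adjusted p = 0.598). IKBKG (chromosome X, 154541199 to 154565046), the regulatory scaffold, had 21.2, 23.2 and 26.9 CPM in ASO against 29.2, 25.2 and 29.6 CPM in NC. The highest ASO library lay above the lowest NC library, and the log2 fold change was -0.24 with an interval of -0.56 to 0.08 (edgeR adjusted p = 0.194). IKBKG has a near-identical pseudogene copy, IKBKGP1, so its counts are uncertain.

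CHUK (chromosome 10, 100188300 to 100229596), the kinase shared by both pathways, had 20.8, 33.7 and 20.1 CPM in ASO against 30.2, 37.6 and 28.5 CPM in NC. ASO replicates 1 and 3 lay below every NC library, while ASO replicate 2 lay among them. The log2 fold change was -0.37 with a 95% interval of -0.88 to 0.14 (edgeR adjusted p = 0.208). Without ASO replicate 2 it was -0.66 and passed the test (edgeR adjusted p = 0.0131). CHUK was the one gene of the 9 that was highest in replicate 2 of both groups. ASO replicate 2 was the lowest ASO library for 6 of the 9 genes and NC replicate 2 the lowest NC library for 7 of the 9. These libraries also had the highest share of mitochondrially encoded counts in their groups, 2.66% and 3.31% against 1.89% to 2.10% in the other ASO and 2.80% to 2.89% in the other NC libraries, and the part of this in the results was not tested.

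**Figure D2:**
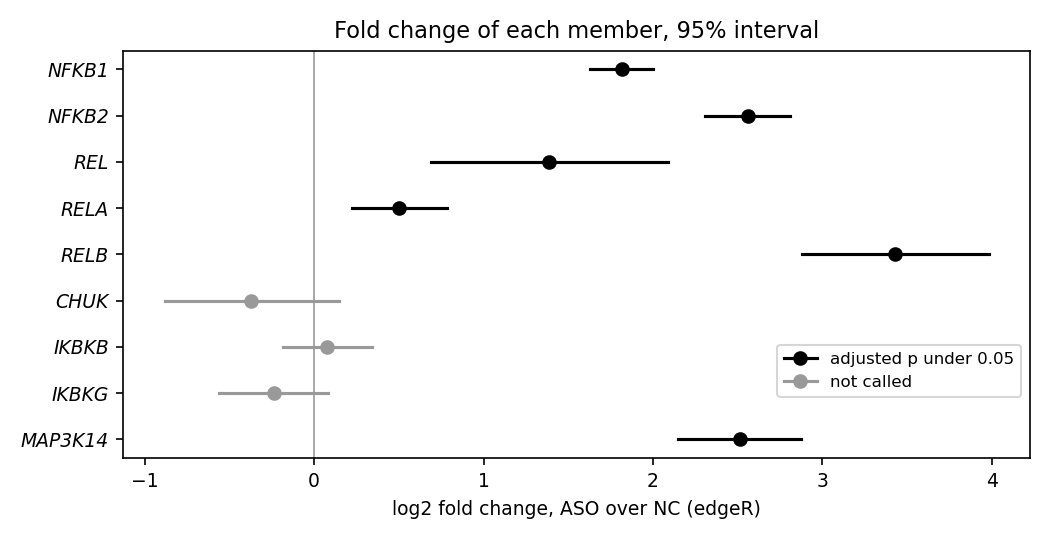
Fitted log2 fold change of ASO over NC for each gene (points) with its 95% interval (lines), black where the edgeR adjusted p is under 0.05 and grey where it is not. RELB lies at 3.43 and RELA at 0.50 among the genes that rose, and the intervals of CHUK, IKBKB and IKBKG include 0.

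Across genes, levels were compared as CPM per kilobase of merged exons in GENCODE 29. In ASO the order of these levels was NFKB2 at 65.2, NFKB1 at 39.1, RELB at 32.0, MAP3K14 at 23.7, RELA at 22.6, IKBKG at 6.73, CHUK at 3.59, IKBKB at 2.99 and REL at 1.99 CPM per kb. Among neighbours in this order, MAP3K14 and RELA overlapped between libraries, as did CHUK and IKBKB. In NC the order was RELA at 15.98, NFKB1 at 11.1, NFKB2 at 11.1, IKBKG at 7.94, CHUK at 4.63, MAP3K14 at 4.16, RELB at 2.96, IKBKB at 2.84 and REL at 0.759 CPM per kb. There NFKB1 and NFKB2 overlapped, as did each neighbour from CHUK to IKBKB. RELA, the most abundant of the 9 per length in NC, was thus the fifth in ASO, and MAP3K14 was above every IKK complex gene in ASO and below IKBKG in NC. With the longest transcript as the length, RELA was again first in NC, and it was above MAP3K14 in ASO.

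The summed level of the 5 REL-domain genes was 172, 144 and 167 CPM per kb in the ASO libraries against 41.9, 38.9 and 44.9 CPM per kb in the NC libraries, 3.84 times as high on average. Its makeup is given as shares, as a description with no test. NFKB2 made up 40.5 ± 0.96% of the sum in ASO and 26.5 ± 1.34% in NC, and RELB 19.8 ± 1.07% in ASO and 6.997 ± 1.58% in NC (SD, n = 3 each). RELA made up 14.03 ± 0.51% in ASO and 38.1 ± 0.83% in NC. The library ranges of these 3 shares did not overlap between the groups. NFKB1 held 24.4 ± 2.11% in ASO and 26.6 ± 0.75% in NC and REL 1.26 ± 0.52% and 1.82 ± 0.37%, with overlapping ranges. These are shares of RNA level, not of protein or of assembled pairs.

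**Figure D3:**
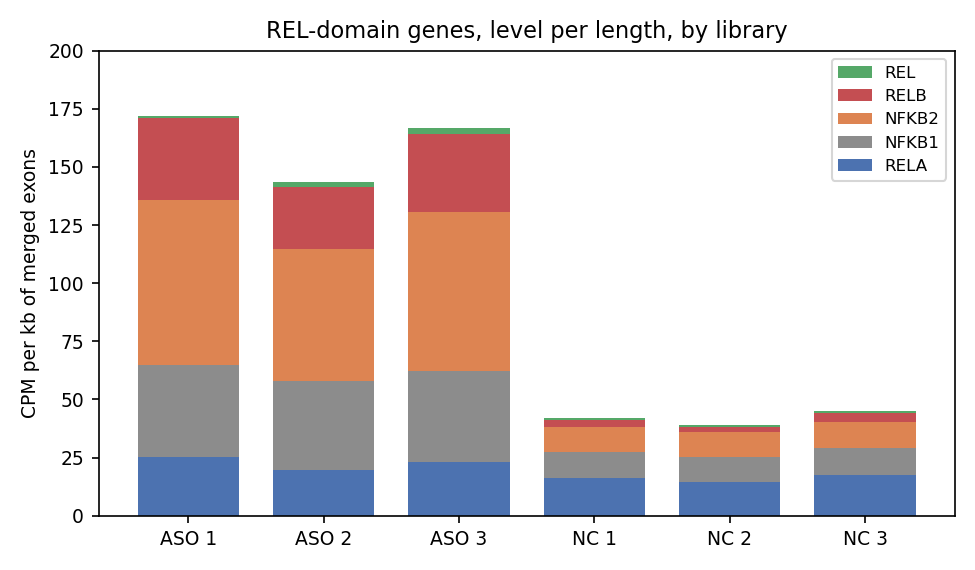
Stacked level of the 5 REL-domain genes in each library, in CPM per kb of merged exons, ASO libraries left and NC libraries right. The bars reach 144 to 172 CPM per kb in ASO and 38.9 to 44.9 CPM per kb in NC, and the NFKB2 and RELB segments take more of each ASO bar than of each NC bar.

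Ratios between genes of the same library do not depend on how libraries are scaled, and 8 of them were compared. With 3 against 3 libraries the exact two-sided permutation test cannot go below p = 0.1, and adjusted over the 8 ratios the smallest value was 0.16. The ratios of second-pathway to canonical subunits were higher in every ASO library than in any NC library. The count of RELB relative to RELA was 0.782, 0.758 and 0.81 in ASO against 0.103, 0.0796 and 0.122 in NC, a 7.81-fold difference in the mean log ratio (exact p = 0.1). NFKB2 relative to NFKB1 was 1.29, 1.05 and 1.25 in ASO against 0.713, 0.731 and 0.699 in NC (exact p = 0.1). The ratio of RELB to its partner NFKB2 was 0.319 to 0.338 in ASO and 0.129 to 0.226 in NC (exact p = 0.1). The RELB ratios were tightly grouped in ASO, with SDs of 0.05 on the log2 scale to both RELA and NFKB2, against 0.31 and 0.41 in NC.

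REL relative to RELA overlapped between the groups, at 0.109, 0.278 and 0.268 in ASO against 0.0901, 0.141 and 0.115 in NC (exact p = 0.3). Among the kinases, MAP3K14 relative to CHUK was 7.05, 3.57 and 7.18 in ASO against 0.836, 0.516 and 0.964 in NC (exact p = 0.1). The ratios within the IKK complex overlapped, with IKBKB to CHUK at 0.959 to 1.8 in ASO and 0.807 to 1.13 in NC (exact p = 0.3) and IKBKG to CHUK at 0.688 to 1.34 in ASO and 0.671 to 1.04 in NC (exact p = 0.6). NFKBIA, which encodes the main inhibitor of the RELA pair and is a target of it, was at 1.24, 1.18 and 1.24 times the count of RELA in ASO against 0.398, 0.408 and 0.375 in NC (exact p = 0.1).

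**Figure D4:**
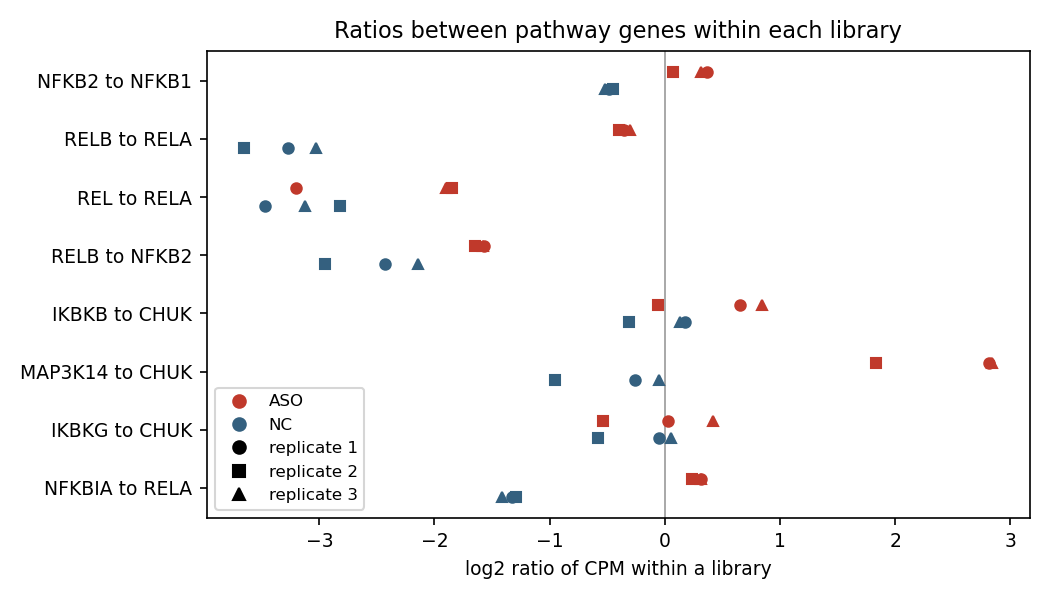
Log2 ratio of the CPM of 2 genes within each library, 1 row per ratio, with ASO above NC and a symbol per replicate. RELB to RELA and MAP3K14 to CHUK show the widest gaps between the groups, and the rows of REL to RELA, IKBKB to CHUK and IKBKG to CHUK overlap.

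RefSeq promoters of GRCh38.p14 were taken from 250 bases before to 50 after an annotated start. They were searched on both strands for the 10-letter kappaB consensus, the DNA element that REL-domain pairs bind. Promoters of 7 of the 9 genes were scanned, all but RELB and IKBKB. Matches on opposite strands can cover the same bases and were then counted as 1 stretch. Of the promoters of genes in the deposited counts, 12.7% held at least 1 match. NFKB1 held 1 stretch, 49 bases upstream of its first start, and 0 at its second. NFKB2 held 2 stretches at its second start, 107 and 78 bases upstream, 2 more at the third start and 0 at the first. REL held 1 stretch, 47 bases upstream. These letters were not found in the windows of RELA, MAP3K14, CHUK or IKBKG. A match is a description of the sequence and not a measured binding site. Whether a match goes with a rise was not tested, and RELB, which rose most, was not scanned. The promoters below are written 5′ to 3′ along each gene, with kappaB matches in capitals. Those of NFKB1, NFKB2 and REL hold a match, and those of RELA and MAP3K14 do not.
NFKB1 promoter, chr4:102501109-102501408, plus strand: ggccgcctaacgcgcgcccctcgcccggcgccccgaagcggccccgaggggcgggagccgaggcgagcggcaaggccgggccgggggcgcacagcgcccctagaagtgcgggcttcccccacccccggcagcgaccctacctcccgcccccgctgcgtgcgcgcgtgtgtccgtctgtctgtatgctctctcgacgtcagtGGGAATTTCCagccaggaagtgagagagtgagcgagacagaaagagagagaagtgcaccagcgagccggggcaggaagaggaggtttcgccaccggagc
NFKB2 promoter at the second start, chr10:102394328-102394627, plus strand: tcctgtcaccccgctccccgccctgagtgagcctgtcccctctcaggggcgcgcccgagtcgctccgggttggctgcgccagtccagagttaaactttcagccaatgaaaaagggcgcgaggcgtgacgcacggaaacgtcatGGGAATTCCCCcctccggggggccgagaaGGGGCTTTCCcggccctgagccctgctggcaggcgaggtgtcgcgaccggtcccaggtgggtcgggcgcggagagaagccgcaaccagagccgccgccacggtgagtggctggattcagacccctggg
NFKB2 promoter at the third start, chr10:102395455-102395754, plus strand: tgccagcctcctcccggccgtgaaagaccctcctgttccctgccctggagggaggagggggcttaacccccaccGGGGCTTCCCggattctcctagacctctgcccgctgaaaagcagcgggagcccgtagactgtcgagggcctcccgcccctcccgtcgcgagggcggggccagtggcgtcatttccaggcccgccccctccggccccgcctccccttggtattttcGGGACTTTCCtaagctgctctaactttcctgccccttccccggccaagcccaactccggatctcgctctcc
REL promoter, chr2:60881324-60881623, plus strand: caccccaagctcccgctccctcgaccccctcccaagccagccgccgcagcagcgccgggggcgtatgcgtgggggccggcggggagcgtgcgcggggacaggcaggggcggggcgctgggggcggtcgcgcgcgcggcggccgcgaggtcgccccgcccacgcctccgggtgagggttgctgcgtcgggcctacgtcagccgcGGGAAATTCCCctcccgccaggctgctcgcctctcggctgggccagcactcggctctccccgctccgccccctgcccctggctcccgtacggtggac
RELA promoter, chr11:65662867-65663166, minus strand: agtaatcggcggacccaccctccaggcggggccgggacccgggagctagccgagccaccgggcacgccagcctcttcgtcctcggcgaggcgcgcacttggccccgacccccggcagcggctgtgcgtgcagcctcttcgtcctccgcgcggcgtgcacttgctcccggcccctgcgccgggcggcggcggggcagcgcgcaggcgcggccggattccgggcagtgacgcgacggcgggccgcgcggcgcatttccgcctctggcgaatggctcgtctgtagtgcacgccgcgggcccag
MAP3K14 promoter, chr17:45316971-45317270, minus strand: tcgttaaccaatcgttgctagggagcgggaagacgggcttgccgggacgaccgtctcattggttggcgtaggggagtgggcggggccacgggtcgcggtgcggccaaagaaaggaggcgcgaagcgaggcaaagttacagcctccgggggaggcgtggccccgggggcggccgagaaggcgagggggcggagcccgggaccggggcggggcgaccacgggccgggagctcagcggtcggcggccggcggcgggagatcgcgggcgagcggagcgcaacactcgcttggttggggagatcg

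The stretch of NFKB1 was GGGAATTTCC, and that of REL holds the same letters when read on the opposite strand. NFKB2 carried GGGAATTCCC, a palindrome matched on both strands, and GGGGCTTTCC at its second start, and GGGACTTTCC 21 bases upstream of the third start. Among the other pathway genes, all 5 IkB protein genes with a promoter sequence held a match in at least 1 promoter, as did 10 of 17 listed NF-kB target genes. In the other lists scanned, it was 5 of 14 ubiquitin machinery genes, 3 of 9 nuclear partners and 5 of 20 adaptor and upstream kinase genes. Of the genes in the deposited counts, 2442 of 15226 held a match. The IkB and target lists were written from known biology that includes kappaB sites, so these shares are no independent finding. Several subunit genes are known NF-kB targets too, so the same holds for their matches.

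The other genes of the pathway were read from lists of known components, by role, in the fit over all genes, whose median log2 fold change was 0.01. All 6 IkB protein genes rose, with a median of 2.00 on the log2 scale and 0 lower by edgeR, DESeq2 or limma-voom, also at an unadjusted p under 0.05. The number called higher was 5 without any single ASO library and without NC replicate 2 or 3. NFKBIE, an inhibitor of REL and RELA pairs, rose 8.52-fold to 84.2 ± 6.22 CPM in ASO, against 9.88 ± 0.36 CPM in NC (edgeR adjusted p = 1.43e-06), and NFKBIZ, a nuclear cofactor of p50, rose 6.05-fold (edgeR adjusted p = 0.000124). Of 10 ligand genes, 6 passed the filter on low counts and were called higher, but 5 of these were below the detection limit of 0.228 CPM in NC and entered the test through the ASO libraries. TNF stood at 56.8, 49.3 and 59.5 CPM in ASO against 8, 5 and 5 counts in the NC libraries, and the lymphotoxin subunit LTB at 9.16, 6.68 and 7.58 CPM in ASO against 4, 0 and 0 counts in NC. Their median log2 fold change was 6.78, or 5.12 with those 5 set at the limit.

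Of 12 receptor genes listed, 8 passed the filter. Of these 8 receptor genes tested, 3 rose, 1 fell and 4 did not pass, with a median log2 fold change of 0.10. TNFRSF12A, the TWEAK receptor of the second pathway, rose 3.55-fold to 459 ± 56.0 CPM in ASO, against 129 ± 8.53 CPM in NC (edgeR adjusted p = 1.47e-05), and IL1RAP, the shared chain of interleukin-1 receptors, rose 3.42-fold (edgeR adjusted p = 0.000129). TNFRSF11A, the receptor of RANK ligand, was at 3.39 ± 0.22 CPM in ASO against 5.31 ± 0.88 CPM in NC. That fall (edgeR adjusted p = 0.0358) was lost without any single ASO library and without NC replicate 1 or 2 (edgeR adjusted p of 0.067 to 0.123). The TNF receptor gene TNFRSF1A and the lymphotoxin receptor gene LTBR, named after their values were seen, were at 209 and 174 CPM in ASO and at 220 and 209 CPM in NC and were not called.

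Of 22 adaptor and upstream kinase genes tested, 7 rose, 2 fell and 13 did not pass, with a median of 0.29. TRAF1, a TNF receptor adaptor, was at 58.4 ± 26.6 CPM in ASO and 3.74 ± 0.23 CPM in NC (15.6-fold, edgeR adjusted p = 0.000147), and IRAK2, a kinase of the interleukin-1 and Toll-like pathway, at 445 ± 17.1 CPM and 29.3 ± 0.86 CPM (15.2-fold, edgeR adjusted p = 2.98e-07). TIRAP, a Toll-like receptor adaptor, fell 1.57-fold (edgeR adjusted p = 0.00935). TAB1, a partner of the kinase TAK1, fell 1.32-fold (edgeR adjusted p = 0.0188, and 0.0555 without NC replicate 1). TRAF2 rose 2.22-fold and BIRC3 4.57-fold, both of which take part in the degradation of NIK. BIRC3 was uneven in ASO, at 19.2, 51.4 and 27.0 CPM, against 7.19, 6.87 and 7.31 CPM in NC. TRAF3, of the same complex, was not called, at 79.3 ± 42.1 CPM in ASO and 36.4 ± 24.6 CPM in NC (edgeR adjusted p = 0.109). Nor was BIRC2, of the same list, at 50.6 ± 20.3 CPM in ASO and 30.8 ± 5.17 CPM in NC (edgeR adjusted p = 0.064). TRAF2, BIRC3, TRAF3 and BIRC2 were named after their values were seen.

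Of 16 genes of the ubiquitin machinery, 3 rose, 1 fell and 12 did not pass, with a median of -0.08. TNFAIP3, which encodes the ubiquitin-editing feedback inhibitor A20, was at 579 ± 18.6 CPM in ASO and 3.91 ± 0.49 CPM in NC (edgeR adjusted p = 2.1e-07), and the deubiquitinase gene CYLD rose 3.41-fold (edgeR adjusted p = 0.000129). BTRC, the ligase subunit that recognises phosphorylated IkB, was 1.62-fold lower in ASO (edgeR adjusted p = 0.0169). Its call was lost without ASO replicate 3 and without each NC library (edgeR adjusted p of 0.0512 to 0.0635). In this list 5 genes were higher and 5 lower without ASO replicate 2, and the lower genes numbered 0 without ASO replicate 3 or any single NC library.

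Of 5 genes of the IKK-related kinases and their adaptors, 2 rose and 1 fell, with a median of 0.06. IKBKE, a kinase related to the IKKs, rose 3.57-fold to 37.3 ± 3.20 CPM in ASO, against 10.4 ± 1.78 CPM in NC (edgeR adjusted p = 0.000104), and the adaptor gene TBKBP1 rose 6.28-fold (edgeR adjusted p = 0.000825). TBK1, the other related kinase, fell 1.82-fold (edgeR adjusted p = 0.0239), a call that was lost without ASO replicate 1 or 3 or NC replicate 1 or 2 (edgeR adjusted p of 0.0654 to 0.0919). Of 13 nuclear partners of NF-kB, 4 rose and 6 fell, with a median of -0.12. The coactivator gene CREBBP rose 1.73-fold (edgeR adjusted p = 0.000622), and the deacetylase gene HDAC2 fell 1.96-fold (edgeR adjusted p = 0.00616). NKRF, a repressor that binds beside NF-kB sites, was 2.72-fold lower (edgeR adjusted p = 0.019), a call that was lost without ASO replicate 2 or 3 or NC replicate 1 or 3 (edgeR adjusted p of 0.057 to 0.0848). The 6 lower genes of this list became 2 without NC replicate 1 and 3 without ASO replicate 3 or NC replicate 3.

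**Figure D5:**
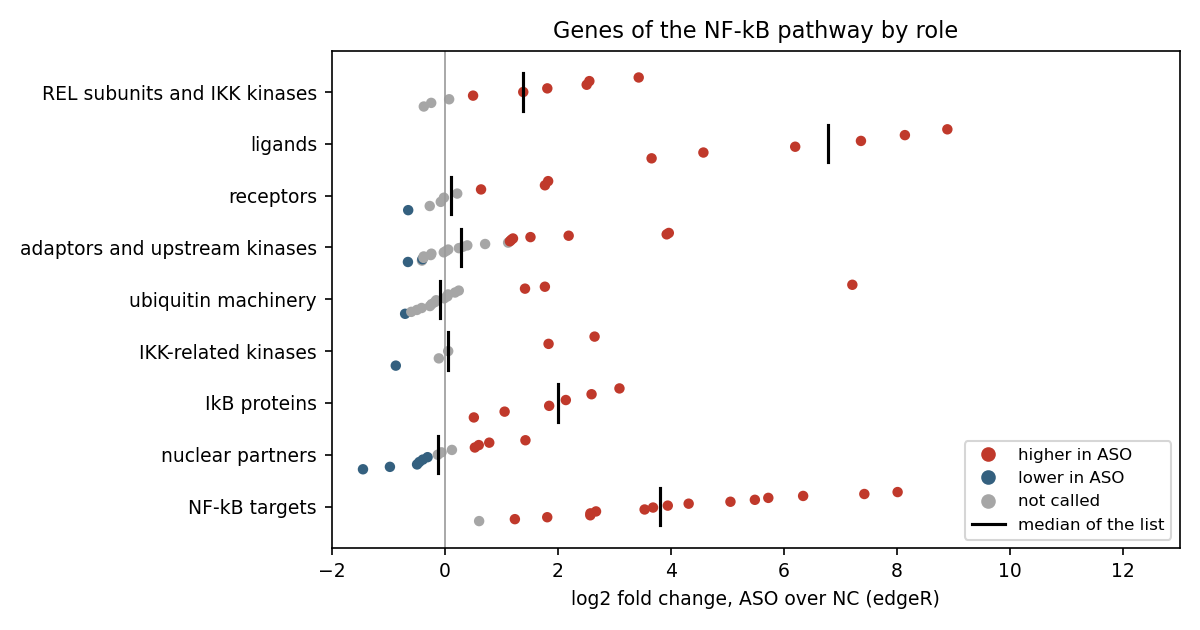
Fitted log2 fold change of ASO over NC for each tested gene of the pathway but MADCAM1, 1 row per role. Red marks higher, blue lower and grey not called at an edgeR adjusted p of 0.05, with a black line at the median of each row. MADCAM1, at -0.45, belongs to the second-pathway target list described below, which is not drawn. The ligand, IkB and target rows lie to the right of 0, the row of the 9 subunit and kinase genes spans -0.37 to 3.43, and the receptor, adaptor, ubiquitin, IKK-related and nuclear rows lie around it; the fitted values of genes near 0 in NC, such as TNF and LTB, depend on the model's prior count.

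Of 21 listed NF-kB target genes, 16 passed the filter, and 15 of these were called higher. Of the 16, CCL20 and CSF2 were below the detection limit in NC and entered the test through the ASO libraries. The median log2 fold change of the 16 was 3.82, also with those 2 set at the limit, and 0 were lower by edgeR, DESeq2 or limma-voom, also at an unadjusted p under 0.05. CXCL8, a neutrophil chemokine gene, was at 433 ± 129 CPM in ASO and 1.67 ± 0.52 CPM in NC (edgeR adjusted p = 2.56e-06), and CSF2 was at 7.65, 5.44 and 7.80 CPM in ASO against 0, 0 and 6 counts in NC. The tested target that did not pass was MMP9, at 1.34 ± 0.40 CPM in ASO and 0.881 ± 0.078 CPM in NC (edgeR adjusted p = 0.228), a gene singled out once its values were known. Another list held target genes associated with the NFKB2 and RELB pair in lymphoid stroma. Of CCL19, CCL21, CXCL12, CXCL13 and MADCAM1, 4 were listed at 0 in all 6 libraries, and MADCAM1 was at 0.465 ± 0.170 CPM in ASO and 0.635 ± 0.105 CPM in NC (edgeR adjusted p = 0.499).

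The genes whose log2 CPM followed that of NFKB2 most closely over the 6 libraries were GATA6, CCDC57, SESN2, IL32 and OTUD1, with Pearson's r of 0.9996 to 0.9997. These libraries form 2 groups, so any gene with a large and even difference between them gives a high r, and 462 of the 11668 genes compared exceeded 0.99.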

How the data were processed

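RNA sequencing of 3 ASO and 3 NC libraries was analysed from estimated counts per gene, as deposited by the authors, whole numbers with no scaling to depth. FastQC, STAR, StringTie and DESeq2 and the build hg38 are named in the submitters' processing notes, without roles or versions. The sources used here state no annotation release, strand setting or treatment of multimapped reads. Deposited gene coordinates lay within 1000 bases of GENCODE 29 (GRCh38) at both ends for 86.0% of the 18785 symbols with a single entry there.

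Low counts were filtered by group with filterByExpr (minimum count 10, minimum total 15), leaving 14062 of 19655, all 9 members among them. The ASO and NC groups were compared in R 4.3.3 with edgeR 4.0.16 (quasi-likelihood test, robust fit), TMM factors, no replicate block and Benjamini-Hochberg adjustment over all genes tested at a threshold of 0.05. The test was tried first on simulated counts with the same spread in every gene. It called 100 of 100 genes changed by 1 on the log2 scale and 100 of 100 changed by 2, with 7 false calls among 13862 unchanged genes. That trial held no deviating library and no changed genes near the detection limit, so it does not cover such cases. Alternatives were other scalings, filters on low counts, DESeq2 1.42.0, limma-voom (limma 3.58.1), removal of mitochondrially encoded genes, counts divided by 4, a block for the replicate number, and each library omitted in turn. Merged exons gave the lengths. The named genes were the 9 members, up to 2 rises and 2 falls per list among called genes at 1 CPM or more in a group, EIF4A1, the markers and the 5 genes most like the member with the smallest p. Members and lists were chosen with earlier results of these data known. Some results that the naming rule selects are not reported here.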

Additional observations from a re-analysis of the deposited data

How the results depend on the processing

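IKBKB and IKBKG were called in 0 of the 16 alternatives. The calls of NFKB1, NFKB2, REL, RELA, RELB and MAP3K14 held in all 16. Their log2 fold changes ran from 1.79 to 1.84 for NFKB1, 2.49 to 2.65 for NFKB2, 1.16 to 1.67 for REL, 0.42 to 0.59 for RELA, 3.24 to 3.64 for RELB and 2.39 to 2.60 for MAP3K14. CHUK ran from -0.66 to -0.23 and was called in 2 alternatives, without ASO replicate 2 and with the replicate block. The number of members called lower was therefore 0 in the main analysis, 1 with the replicate block and 0 to 1 with a library left out. The lower genes numbered 2692 over all genes tested, and 1755 to 3199 with a library left out. In the pathway lists 11 of 93 genes tested were lower, 3 to 13 with a library left out and 16 with the replicate block. The higher genes there numbered 46, and 45 to 49 over all alternatives, with 5 to 6 among the IkB proteins and 5 to 7 among the ligands. Over all genes tested, 19.1% were lower and 26.8% higher. Of 23 pathway genes chosen by the naming rule, 18 kept their call in every alternative; the exceptions were TNFRSF11A, TAB1, BTRC, TBK1 and NKRF. With 1 mismatch allowed outside the leading GGG, 64.9% of promoters held a kappaB match, against 12.7% with none, so the looser match separates few promoters. With the longest transcript as the length, a choice added after the data were seen, RELA made up 16.9% of the REL-domain level in ASO and 43.0% in NC, NFKB2 37.3% and 22.8%, and RELB 18.4% and 6.08%.

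Equal replicate numbers are not said to mark a shared culture or day. For that reason the main test did not take the numbers as pairs. Deviations from the group means correlated at 0.131, 0.412 and 0.088 for the 3 same-numbered pairs. ASO replicate 2 correlated best with NC replicate 2, and ASO replicate 1 with NC replicate 3 (0.235). ASO replicate 3 correlated about equally with NC replicates 1 and 3 (0.087 and 0.088). These values do not decide whether the libraries were paired. The replicate block raised the genes called to 3924 higher and 3494 lower, and its CHUK log2 fold change was -0.40 (edgeR adjusted p = 0.0295). It ended the call of TNFRSF11A (edgeR adjusted p = 0.0582).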
